A study of Mus musculus with 109 samples.

Results

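The distal ends of 16 mouse autosomes, the last 10 Mb of chromosomes 1 to 7, 9 to 15, 18 and 19, were captured by a bait near the distal end of chromosome 8 more often than their number of restriction sites predicted. This bait, B118, placed 8.99% ± 0.772 (SD, n = 10 libraries) of its captured sites there, where 7.20% of the sites lie. The bait at the other extremity of chromosome 8, B7, placed 7.53% ± 0.597 (n = 11) there. The ends of chromosomes 1, 5 and 9 were among those captured more by B118 than by the other baits, and the end of chromosome 14 had the largest such difference. The ends of chromosomes 10, 15 and 19 were captured most on average over the baits, and at chromosomes 15 and 19 no difference between B118 and the others passed the test.

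The assay was 4C-seq, in which DNA of crosslinked nuclei is cut with HindIII and ligated, cut again with DpnII and circularised, and the fragments joined to 1 chosen fragment, the bait, are amplified and sequenced. It was run in C127 cells, an established mouse mammary tumour line, at baits chosen for their replication timing, and the series asks how chromatin contacts change through early G1. Cultures were held in mitosis by a 4 h nocodazole block and were taken in mitosis or at 0.5, 1, 2, 3 and 4 h after release. G2 cells came from a 15 h release and G0 cells from 5 days without serum. No group carried a genetic change, all used the same line, and the assay measures no expression, so the identity of the line could not be checked against marker genes.

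A region was included when its HindIII sites lay within 10 Mb of the last site of the chromosome in the mm9 assembly. This gave 48261 sites in 16 regions, out of 670204 sites on these 16 autosomes and 823352 in all. The rule used position only, so no capture value chose the members. The last site stood 151 bp (chromosome 1) to 10828 bp (chromosome 18) before the end of the assembled sequence, and the telomeric repeats themselves were not analysed here. Chromosomes 8, 16 and 17, which held baits, were not included. Each library is called by its bait and label. There were 11 libraries at each of B7, B26, B44 and B53 and 10 at each of B87 and B118, which had none labelled mitosis, 64 in all, with the 2 technical replicates of 2 h summed as 1 library. Mitosis, 3 h, 4 h and G2 had 1 library per bait and 30 min, 1 h and G0 had 2. Where nothing says that cultures were separate, the p-values below measure only the spread between these libraries. Tests over bait means take the baits as units, though libraries of different baits may come from the same cultures. Their p-values measure only the spread between baits.

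Libraries held 266006 to 12536212 reads and captured 2401 to 105481 of the sites on the 16 autosomes, with a median of 15206. At each of the 6 baits, the library labelled 1 h replicate 2 and technical replicate 1 of 2 h shared 65.0% to 96.7% of the sites of the smaller one, and G0 replicate 2 of B118 shared 81.2% and 83.3% of its sites with this pair. G0 replicate 1 shared 61.7% and 61.9% with the same pair at B44, 50.6% and 49.9% at B53 and 29.4% and 26.8% at B26, and at B7 30 min replicate 2 and 3 h shared 32.1%. These 15 pairs, out of 374, were those that shared over 25% and over 3 times the number given by chance, and the pairs other than the first 6 and the technical replicates had a median of 7.60%. The 18 libraries in them cross the stages compared. The mean ratios, bait pairs, tests by position, stage differences and bin tests were therefore also run without 1 h replicate 2 and 2 h, and on the 46 libraries left without all 18. The values for single ends, windows and gene clusters are given over all libraries only. In all 70 columns used, the labelled bait had more reads within 100 kb than any other bait of the series. These reads were 5.21% (B53, G2) to 73.6% (B44, technical replicate 2 of 2 h) of the column.

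Mouse chromosomes carry the centromere next to one end, so that each has a proximal, centromere-side end and a distal end capped by the telomere at the tip of its single long arm. Distal ends of mouse chromosomes are often rich in genes and in G and C bases. In interphase nuclei chromosomes keep separate territories, and contacts between chromosomes are rarer than those within one.

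The baits are defined by the primers from which the ligated fragments were read, and their positions along chromosome 8 set the comparison. Each primer ends in the HindIII site, given in capitals, and matched the plus strand of mm9 at 1 place on chromosome 8. B118, chr8:118459309-118459328, lay 13.3 Mb before the last site of chromosome 8, and B87, chr8:87434064-87434081, lay 44.3 Mb before it. B53, chr8:52961959-52961978, was 78.8 Mb away, B44, chr8:44417335-44417354, was 87.3 Mb away, B26, chr8:26774313-26774332, was 105.0 Mb away, and B7, chr8:7223950-7223970, was 124.5 Mb away. B87 and B26 lay within the genes Dnase2a, which encodes a lysosomal nuclease, and Whsc1l1, a histone methyltransferase gene. The other baits were intergenic, and the protein-coding gene nearest B118 was Maf, a leucine zipper transcription factor gene.
B7: tattaggacagacagAAGCTT
B26: ttgagtttgacgccAAGCTT
B44: ggtcatccctttagAAGCTT
B53: aaacatgtttggccAAGCTT
B87: gggcggagatggAAGCTT
B118: cctcatacagctggAAGCTT

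The sites captured by the most libraries show what a single member looks like, and each is given as 60 bases of the mm9 plus strand with the HindIII site in capitals. One site in an exon of Paip1, a gene for a poly(A)-binding protein partner, at chr13:120245812-120245871, was captured by 34 of 64 libraries, with up to 7359 reads in 1 library. A pair of sites at Gm14412, chr2:177098938-177098997 and chr2:177100025-177100084, were captured by 24 and 23 libraries. The next 4 were tied at 20 libraries, so 7 sites are shown. They lay 11216 bp from Grid2ip, which encodes a glutamate receptor-binding protein (chr5:144107774-144107833), 54348 bp from Lrig3 (chr10:125506736-125506795), in an intron of Rhbdf2, an inactive rhomboid protease gene (chr11:116477158-116477217), and in an intron of Asb8 (chr15:97978110-97978169). For all 7, the site with the 30 bases next to it on at least 1 side occurred once among HindIII sites of mm9.
Paip1: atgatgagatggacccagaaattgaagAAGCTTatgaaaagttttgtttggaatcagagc
Gm14412, first: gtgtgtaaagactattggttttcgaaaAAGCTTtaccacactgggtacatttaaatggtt
Gm14412, second: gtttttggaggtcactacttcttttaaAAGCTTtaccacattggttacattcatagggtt
Grid2ip: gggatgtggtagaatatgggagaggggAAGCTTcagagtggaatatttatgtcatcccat
Lrig3: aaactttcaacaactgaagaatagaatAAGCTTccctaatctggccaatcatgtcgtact
Rhbdf2: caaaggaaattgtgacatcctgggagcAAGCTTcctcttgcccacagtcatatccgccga
Asb8: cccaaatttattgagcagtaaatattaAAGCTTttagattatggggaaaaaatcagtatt

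The Paip1 site was captured from every bait, by 3, 6, 8, 11, 3 and 3 libraries of B7, B26, B44, B53, B87 and B118. By contrast, the Asb8 site was captured by all 11 libraries of B7 and by 1 to 3 of each other bait, and the Rhbdf2 site by all 11 libraries of B53 and by 0 to 4 of each other bait. Sites of this kind were few. Of the 48261 distal sites, 33172 (68.7%) were captured by at least 1 library, 1016 (2.11%) by at least 10 and 7 (0.0145%) by at least 20. Over all sites of the 16 autosomes the same shares were 66.7%, 1.31% and 0.00746%. The values that follow are therefore sums over many sites, most of them seen in few libraries.

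For each library the share of captured sites in the distal ends was divided by their share of HindIII sites, 7.20%, and this quotient is called the distal ratio. A site counted as captured with 1 read or more, whatever its number of reads. The mean of the 6 bait means was 1.11 ± 0.0844 (SD, n = 6 baits), and all 6 were above 1 (two-sided exact sign-flip permutation test p = 0.03125, the smallest that 6 baits can give). The ratio is thus small in size, and its value depended on the bait.

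B118 libraries had distal ratios of 1.38 (30 min replicate 1), 1.08 (30 min replicate 2), 1.35 (1 h replicate 1), 1.26 (1 h replicate 2), 1.28 (2 h), 1.18 (3 h), 1.20 (4 h), 1.40 (G2), 1.12 (G0 replicate 1) and 1.24 (G0 replicate 2). Every one lay above 1, and in all 10 the 95% Wilson interval of the share, which covers counting error only, left out the expected 7.20%. The mean was 1.25 ± 0.107 (SD, n = 10; exact sign-flip permutation test, adjusted p = 0.0044 over the 6 baits). Without the 3 libraries that share sites (1 h replicate 2, 2 h and G0 replicate 2) it was 1.24 ± 0.131 (n = 7; exact permutation test, adjusted p = 0.0281).

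B87 had the next highest ratio, 1.18 ± 0.0825 (n = 10), with libraries from 1.02 to 1.30, a median of 1.19 and all 10 above 1 (exact permutation test, adjusted p = 0.0044). B53 had 1.07 ± 0.0493 (n = 11), from 0.986 to 1.18 with a median of 1.07, and 10 of 11 libraries were above 1 (exact, adjusted p = 0.0044). B44 had 1.06 ± 0.0456 (n = 11), from 0.980 to 1.14 with a median of 1.07, also with 10 of 11 above 1 (exact, adjusted p = 0.0044). All 3 baits passed the threshold of 0.05, and only the libraries of B87 stayed above 1 throughout.

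B26 had 1.06 ± 0.0605 (n = 11), from 0.940 to 1.15 with a median of 1.05, and 10 of 11 libraries were above 1 (exact permutation test, adjusted p = 0.0152). B7 had 1.05 ± 0.0828 (n = 11), from 0.955 to 1.22 with a median of 1.02, and 7 of 11 were above 1, which did not pass the test (exact, adjusted p = 0.0947). On the 46 libraries that share few sites the means were 1.03 at B7, 1.06 at B26, 1.07 at B44 and B53 and 1.18 at B87, and no call changed. Without 1 h replicate 2 and 2 h alone, B26 did not pass (1.05; exact permutation test, adjusted p = 0.0609). Over all libraries the order of the 6 means was that of the baits along chromosome 8, from B7 farthest from the distal end to B118 nearest to it, and this order was lost when base composition was matched, as given below.

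**Figure D1:**
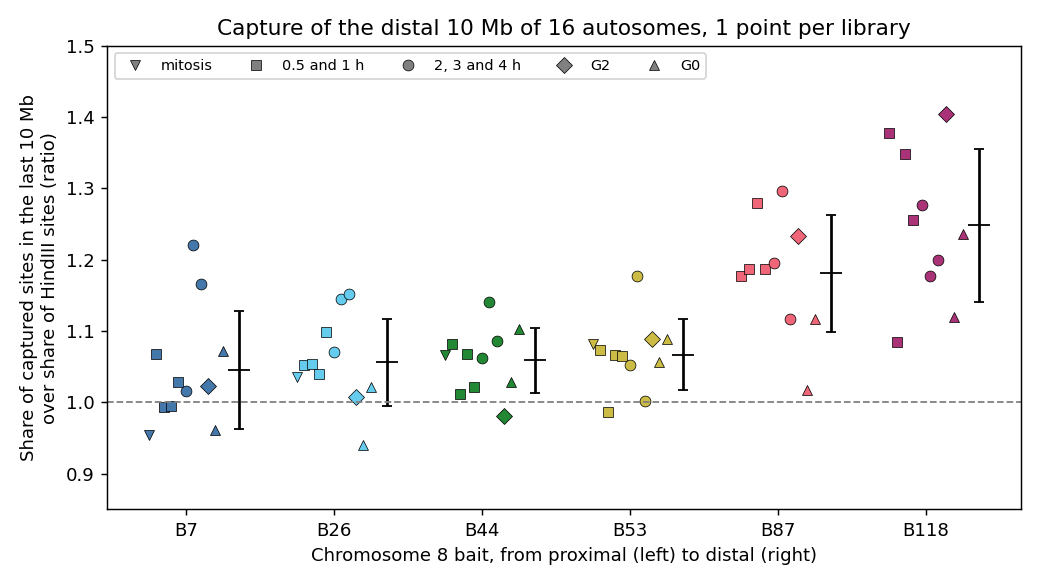
Distal ratio of every library (vertical axis, a ratio with no unit, 1 being the share expected from HindIII sites) by bait (horizontal axis), with symbols for the stage and the mean and SD of each bait in black. All 10 libraries of B87 and all 10 of B118 lie above 1, and the means of the 4 baits farther from the distal end lie between 1.05 and 1.07.

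Of the 15 pairs of baits, 8 differed at an adjusted p under 0.05 (two-sided permutation test of the libraries). These were B118 and B87 each against B7, B26, B44 and B53, and their tests were exact. B118 exceeded B53 by 0.181 ± 0.0370 (SE; exact permutation test, adjusted p = 0.00033) and B87 exceeded B53 by 0.114 ± 0.0300 (exact permutation test, adjusted p = 0.0028). B118 and B87 differed by 0.0674 ± 0.0428 (SE), which did not pass (exact permutation test, adjusted p = 0.221). Nor, with 100000 resamples each, did any of the 6 pairs among the 4 other baits, whose means spanned 1.05 to 1.07. The same 8 pairs passed without 1 h replicate 2 and 2 h and on the 46 libraries that share few sites. Against all 54 libraries of the other baits together, B118 was higher by 0.168 ± 0.0356 (SE; permutation test with 100000 resamples, p = 1e-05, the smallest they can give), with 10 of 10 libraries above the mean of the others. Without 1 h replicate 2 and 2 h the difference was 0.164, and 8 of 8 libraries were above it. On the 46 libraries it was 0.161, with 7 of 7 above. The test took libraries as units, though they belong to baits that differ among themselves and B118 is 1 bait. Its p-value does not measure a spread between baits.

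The choice of expectation separated B118 from B87. Distal ends had a GC content of 44.1% and 11.1 protein-coding genes per Mb, against 41.4% and 8.96 per Mb at 40 to 50 Mb from the end. That bin had the lowest GC content of those up to 60 Mb. Gene density did not fall steadily with distance. It was 10.7 per Mb at 10 to 20 Mb, 8.28 at 30 to 40 Mb and 10.9 at 50 to 60 Mb. At 20 to 30 Mb it was higher than in the distal ends. When 1-Mb windows were put into 10 equal classes by GC content and each site was compared only with sites of its own class (the GC-matched expectation), the ratio of B118 was 1.14 ± 0.0864 (n = 10), with 10 of 10 libraries above 1. That of B87 was 0.974 ± 0.0628 (n = 10), with 2 of 10 above 1, so the direction at B87 turned. B26 also turned, to 0.942 ± 0.0333, with 1 of 11 above 1, and B44 to 0.992 ± 0.0395, while B7 was at 1.00 ± 0.0659 and B53 at 1.03 ± 0.0446. On this scale the mean over baits was 1.01, with 3 of 6 above 1. B118 exceeded B87 by 0.167 (exact permutation test, adjusted p = 0.00085), and it also exceeded each of the 4 others, by 0.111 to 0.199. B87 no longer differed from B7, B26 and B44 past the threshold (exact permutation tests, adjusted p from 0.216 to 0.461), and B87 minus B53 was -0.0565 (exact permutation test, adjusted p = 0.0434), so that this call reversed. B26 was lower than B7, B44 and B53 (exact permutation tests, adjusted p = 0.0112, 0.00831 and 0.00015). In all 9 of 15 pairs passed, and the Spearman correlation of the 6 bait means with distance from the distal end went from -1.0 to -0.429, both descriptions over 6 baits. The GC content within 500 kb of the bait was 49.6% at B87 and 43.4% at B118, and its part in these values was not tested.

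Without GC matching, the ratios stayed close to those first given when differences between whole chromosomes were taken out. With the expected share taken within each chromosome, B118 had 1.24 ± 0.106, B87 1.17 ± 0.0761, B53 1.06 ± 0.0485, B44 1.04 ± 0.0420, B26 1.04 ± 0.0595 and B7 1.03 ± 0.0847. The same 8 pairs of baits passed the test. With reads in place of captured sites, B118 had 1.26 and B7 0.927, so the direction at B7 turned.

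The capture from B118 was lower farther from the end. Its ratio was 1.25 in the last 10 Mb, 1.16 at 10 to 20 Mb, 1.11 at 20 to 30 Mb, 1.04 at 30 to 40 Mb, 0.995 at 40 to 50 Mb and 0.962 at 50 to 60 Mb, the bins that all 16 chromosomes hold. B87 had 1.18, 1.19, 1.17, 1.00, 0.979 and 1.03 in the same bins, a plateau over 30 Mb. B7 went from 1.05 in the last 10 Mb to 0.988 and 0.959 in the next bins. GC content moved with distance as well, from 44.1% in the last 10 Mb to 43.7%, 43.3%, 42.1%, 41.4% and 42.1% in the following bins, and its part in these values was not tested.

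**Figure D2:**
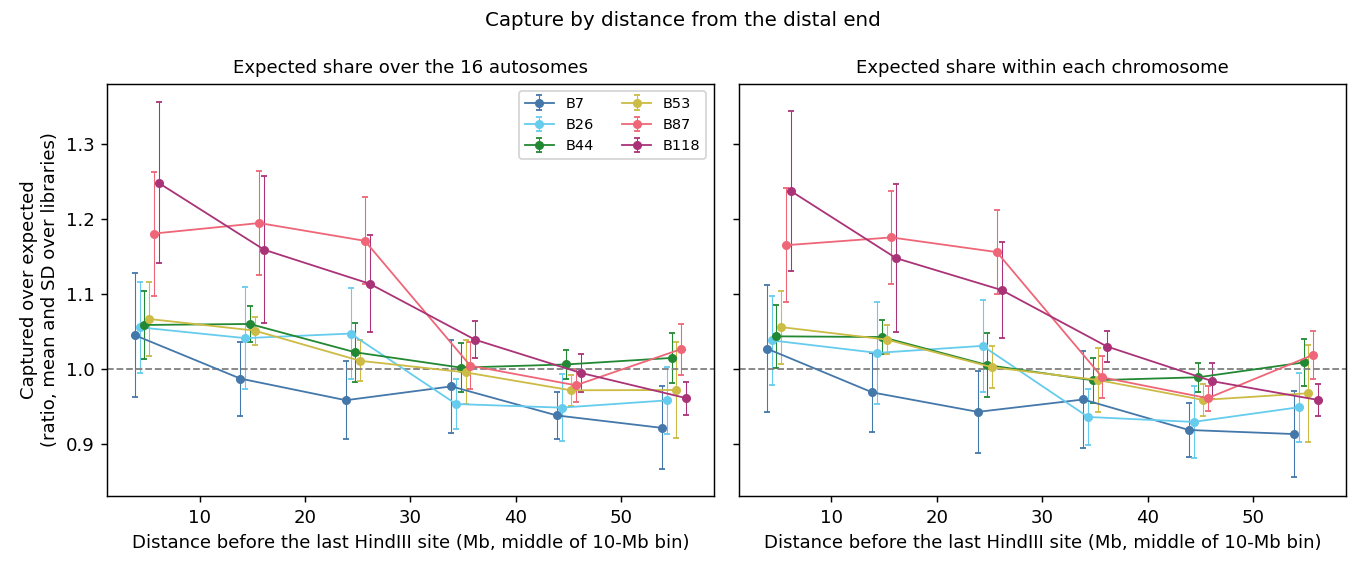
Captured over expected share (vertical axis, a ratio) in 10-Mb bins counted back from the last HindIII site (horizontal axis, Mb to the middle of the bin), as mean and SD over the libraries of each bait, with the expected share over the 16 autosomes on the left and within each chromosome on the right. B118 is highest in the last 10 Mb, at 1.25 on the left and 1.24 on the right, and B87 stays near its level of 1.18 for 30 Mb.

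The last 10 Mb exceeded the neighbouring 10 Mb at B118 alone among the tests by bait. There the difference was 0.0889 ± 0.0355 (SD, n = 10), positive in 10 of 10 libraries (exact sign-flip permutation test, adjusted p = 0.0117 over 6 baits). At the 5 others it ran from -0.0140 at B87 to 0.0577 at B7 and did not pass (exact tests, adjusted p from 0.138 to 0.906). Over the 6 baits the mean difference was 0.0269 ± 0.0388 (SD), positive in 4 of 6 (exact permutation test p = 0.156). Without 1 h replicate 2 and 2 h it was 0.0962 at B118, positive in 8 of 8 (exact permutation test, adjusted p = 0.0469). On the 46 libraries it was 0.0930, positive in 7 of 7, and no longer passed (exact permutation test, adjusted p = 0.0938, from the smallest p that 7 libraries can give, 0.0156). Whether the difference at B118 exceeds those at the other baits was not tested.

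At the centromere side, the first 10 Mb with sites held 53608 sites on the same chromosomes, and the baits stood in nearly the opposite order. The proximal ratio was 1.15 ± 0.174 at B7, 1.04 ± 0.0685 at B26, 0.933 ± 0.0372 at B44, 0.947 ± 0.0405 at B53, 0.897 ± 0.0450 at B87 and 0.883 ± 0.0514 at B118 (SD). Distal minus proximal was 0.365 ± 0.156 at B118 and 0.284 ± 0.105 at B87, positive in 10 of 10 libraries each, and 0.126 at B44 and 0.120 at B53, positive in 11 of 11 each (exact permutation tests, adjusted p = 0.0029 for each of the 4). It was 0.0187 at B26 and -0.104 at B7, neither past the threshold. The same 4 baits passed without 1 h replicate 2 and 2 h and on the 46 libraries. Over the 6 baits the mean was 0.135 ± 0.171 (exact permutation test p = 0.0938), and with the GC-matched expectation it was -0.00119, positive in 3 of 6.

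Within the last 10 Mb the outermost sites were not the ones captured most. In 1-Mb steps from the end, B118 had 1.31, 1.32, 1.39, 1.38, 1.12, 1.11, 1.19, 1.29, 1.21 and 1.16. B87 had 1.25 and 1.28 in the first steps, 1.46 at 2 to 3 Mb and 1.39 at 3 to 4 Mb, and 0.940 to 1.25 in the rest. B7 stayed between 0.966 and 1.10 in all 10 steps. The SD over libraries was 0.223 for B118 in the outermost 1 Mb and 0.170 at 2 to 3 Mb, as large as or larger than the differences between these neighbouring steps. At the border that the rule draws, the mean over baits was 1.04 at 9 to 10 Mb, just inside, and 1.04 at 10 to 11 Mb, just outside.

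The 16 ends differed among themselves far more than the baits did. Averaged over the 6 baits, the end of chromosome 10 had a ratio of 1.77 ± 0.136 (SD over baits), that of chromosome 15 had 1.72 ± 0.312 and that of chromosome 19 had 1.64 ± 0.123. The lowest were chromosome 14 at 0.500 ± 0.0881, chromosome 18 at 0.620 ± 0.0579 and chromosome 12 at 0.707 ± 0.0923. The 10 others ran from 0.742 at chromosome 2 to 1.41 at chromosome 11. No test was run between ends, and the values are descriptions.

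These levels largely went with those of the whole chromosomes. Chromosome 19 as a whole had 1.50 times its expected share, chromosome 15 had 1.33 and chromosome 10 had 1.32, whereas chromosome 14 had 0.587, chromosome 12 had 0.664 and chromosome 18 had 0.704. Across the 16 ends the Pearson correlation of the end's ratio with its chromosome's level was 0.828 at B87 to 0.938 at B44. Ends are part of their chromosome, and the points share libraries, so this is a description. Divided by the level of its own chromosome, the end of chromosome 19 was at 1.09 and that of chromosome 12 at 1.07, so neither stood far from the rest of its chromosome. By this within-chromosome ratio the highest ends were chromosome 10 at 1.35 ± 0.154, chromosome 7 at 1.33 ± 0.0747 and chromosome 1 at 1.31 ± 0.131, and the lowest were chromosome 2 at 0.781 ± 0.0952 and chromosome 14 at 0.853 ± 0.138. At the chromosome 2 end only 65.9% of the sites had a flank unique among the HindIII sites of mm9. At the other ends this share was 86.1% to 96.8%, and its part in the low ratio of chromosome 2 was not tested.

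**Figure D3:**
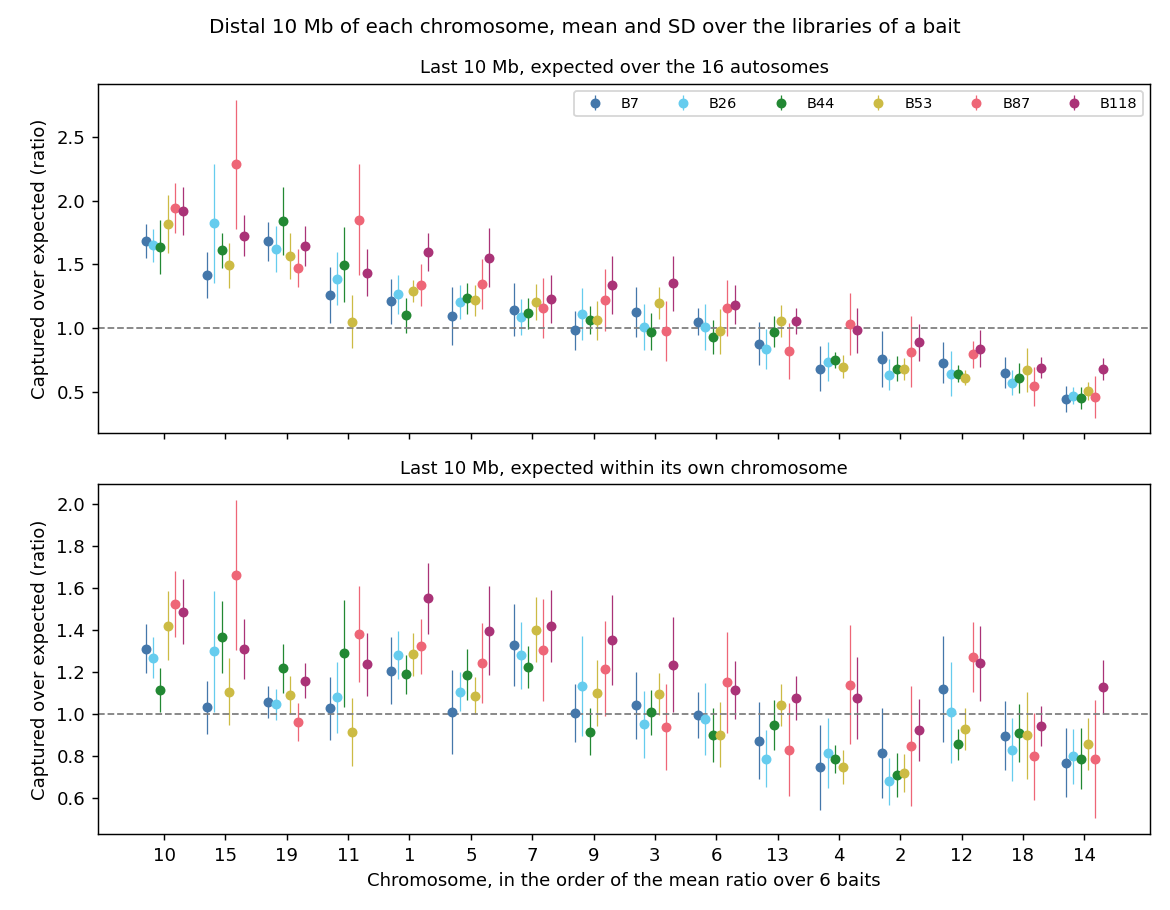
Captured over expected share of the last 10 Mb of each chromosome (vertical axes, ratios) by chromosome (horizontal axis, from the highest to the lowest mean), as mean and SD over the libraries of each of 6 baits, with the expected share over the 16 autosomes above and within its own chromosome below. Chromosomes 10, 15 and 19 lead the upper panel at 1.77, 1.72 and 1.64, and B118 is at 1.13 at the end of chromosome 14 in the lower panel where the other baits are between 0.767 and 0.855.

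The end of chromosome 10 (chr10, 119991869 to 129991868, 3120 sites, 182 protein-coding genes) had ratios of 1.68 ± 0.133 at B7, 1.65 ± 0.131 at B26, 1.64 ± 0.210 at B44, 1.82 ± 0.227 at B53, 1.94 ± 0.197 at B87 and 1.92 ± 0.189 at B118. Baits overlapped, and the lowest library of any bait was at 1.34. Its most captured 1-Mb window, 2 to 3 Mb from the end (126991869 to 127991868), had 44 genes, and those with the longest overlap were Lrp1, a large endocytic receptor gene, Baz2a, which encodes a silencer of ribosomal RNA genes, and Rbms2. Its ratio, summed over libraries, was 2.33, and it was above 1 in 58 of 64 libraries. It was 4.98 from B87, 2.97 from B26 and 2.25 from B118. This window, like those of the ends below, was chosen by its summed ratio. Its values and counts of libraries are descriptions of that choice and carry no test. The protein-coding gene nearest the last site was the vomeronasal receptor gene Vmn2r87.

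At chromosome 15 the end (93490917 to 103490916, 2832 sites, 199 genes) was at 1.42 ± 0.182 at B7, 1.82 ± 0.467 at B26, 1.61 ± 0.139 at B44, 1.49 ± 0.173 at B53, 2.28 ± 0.509 at B87 and 1.72 ± 0.159 at B118. B87 was the highest, though its libraries ran from 1.44 to 3.07 and overlapped those of all others. The most captured window was the outermost 1 Mb (102490917 to 103490916), at 2.25 (1.54 at B7 to 2.79 at B87) and above 1 in 57 of 64 libraries, with Cbx5, the gene for heterochromatin protein HP1 alpha, Nckap1l and Gtsf1. The last gene was Glycam1, which encodes a mucin.

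On chromosome 19 the end (51336202 to 61336201, 3172 sites, 66 genes) was at 1.68 ± 0.157, 1.62 ± 0.180, 1.84 ± 0.267, 1.56 ± 0.180, 1.47 ± 0.148 and 1.64 ± 0.160 in the order B7, B26, B44, B53, B87 and B118. Here B44 was the highest and B87 the lowest, unlike at chromosomes 10 and 15. Its leading window, 6 to 7 Mb from the end (54336202 to 55336201), held 4 genes, among them Gpam, a glycerol-3-phosphate acyltransferase gene, Gucy2g and the inner ear gene Tectb, and had a ratio of 2.05. This value, summed over libraries, leans on B44, the bait with the most captured sites, which was at 2.99 there, while the 5 others were at 1.30 to 1.72. The gene nearest the last site was Csf2ra, the alpha chain of the GM-CSF receptor.

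The end of chromosome 14 (115189525 to 125189524, 3231 sites, 39 genes) had 0.444 ± 0.101 at B7, 0.468 ± 0.0682 at B26, 0.451 ± 0.0880 at B44, 0.507 ± 0.0708 at B53, 0.459 ± 0.163 at B87 and 0.674 ± 0.0862 at B118. The B118 libraries were at 0.748 and 0.485 (30 min replicates 1 and 2), 0.659 and 0.693 (1 h), 0.737 (2 h), 0.662 (3 h), 0.569 (4 h), 0.733 (G2), and 0.746 and 0.713 (G0). They rested on 22 to 219 captured sites each, and they overlapped the other baits, whose libraries reached 0.761. Set against its own chromosome, this end was at 1.13 ± 0.128 from B118, above 1 in 9 of 10 libraries, and at 0.767 to 0.855 from the 5 others. Its leading window, 4 to 5 Mb from the end (120189525 to 121189524), reached 0.573 (0.430 at B7 to 0.785 at B118), and held Mbnl2, a splicing regulator gene, Hs6st3 and Rap2a. Fgf14, a gene for an intracellular growth factor homologue of neurons, was the last gene.

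The chromosome 12 end (111256458 to 121256457, 2999 sites, 87 genes) ran from 0.609 ± 0.0597 at B53 to 0.835 ± 0.144 at B118. Its leading window, 8 to 9 Mb from the end (112256458 to 113256457), was at 1.08, from 0.587 at B53 to 1.88 at B87, and held Traf3, which encodes an adaptor of immune signalling, Cdc42bpb and the kinase gene Mark3. That of chromosome 18 (80761204 to 90761203, 3263 sites, 25 genes) ran from 0.542 ± 0.154 at B87 to 0.689 ± 0.0792 at B118. Its leading window, 9 to 10 Mb from the end (80761204 to 81761203), was at 0.838, from 0.697 at B53 to 0.934 at B118, and held Atp9b, the transcription factor gene Nfatc1 and Sall3. Both ends lay below 1 in the mean at every bait.

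At other ends, the protein-coding genes nearest the last site were Cr2, a complement receptor gene (chromosome 1), Gm14496 (chromosome 2), Wls, which encodes a carrier of Wnt proteins (chromosome 3), Klhl17 (chromosome 4), the replication factor gene Rfc3 (chromosome 5), Bicd1, a motor adaptor gene (chromosome 6), the sensory neuron receptor gene Mrgprd (chromosome 7), Gm9631 (chromosome 11) and 3110070M22Rik (chromosome 13). Those of chromosomes 12 and 18 were Tmem196 and Gm17635. They lay 0 to 192372 bp from the last site.

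Gene clusters at fixed landmarks, measured with 250 kb on each side, lay above or below their ends depending on the cluster and the bait. The Hoxc cluster of 9 homeobox genes (chromosome 15, 102751534 to 102867274) had ratios of 1.48 ± 0.810 at B7, 2.12 ± 0.638 at B26, 2.80 ± 0.794 at B44, 1.34 ± 0.707 at B53, 2.95 ± 2.00 at B87 and 2.14 ± 0.469 at B118. It was above 1 in all 11 libraries of B44 and all 10 of B118. The 20 type II keratin genes found by the list (chromosome 15, 101177875 to 101834773), intermediate filament genes of epithelia, had 1.65 ± 0.739, 2.23 ± 0.945, 1.45 ± 0.331, 1.77 ± 0.757, 2.59 ± 0.784 and 1.76 ± 0.499 in the same order. In the mean over libraries, the Hoxc cluster was above the level of its end, 1.61, from B44 and below that of 1.49 from B53. Summed over the libraries of B53 instead, the Hoxc cluster was at 1.50. The spread within a bait was large for both clusters.

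The imprinted genes H19, Igf2, Kcnq1, Cdkn1c and Phlda2 (chromosome 7, 149761434 to 150688446) had 0.858 ± 0.251 at B7, above 1 in 2 of 11 libraries, and 1.44 ± 0.447 at B118, above 1 in 9 of 10, with 1.10 to 1.36 at the others. Of the immunoglobulin heavy chain genes, Ighm and Ighg1 were found (chromosome 12, 114567187 to 114660941), and the means of this region were 0.261 ± 0.245 at B87 to 0.460 ± 0.485 at B26. They lay below those of the chromosome 12 end at every bait, which were 0.791 at B87 and 0.640 at B26. The region rested on 13 to 57 captured sites per bait.

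Ends with more genes were captured more relative to their chromosome chiefly from B87. Over the 16 ends the Pearson correlation of the within-chromosome ratio with the number of protein-coding genes was 0.708 at B87, 0.409 at B26, 0.399 at B44, 0.286 at B118, 0.256 at B7 and 0.145 at B53. With GC content it was 0.528 at B87 and 0.210 at B118. With the share of sites that had a unique flank it was 0.446 at B7, 0.619 at B26 and 0.631 at B44. The same correlation was 0.550 at B53, 0.395 at B87 and 0.557 at B118. At every bait except B87 it was higher than the correlation with the number of genes. The part of unique flanks in these ratios was not tested. Between baits the within-chromosome ratios of the 16 ends correlated at 0.525 (B53 and B87) to 0.903 (B26 and B118). These are descriptions over 16 ends that share libraries, restriction sites and base composition.

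B118 stood above the mean of the 5 other baits at 15 of 16 ends, the exception being chromosome 15 at 1.72 in both. It was the highest of the 6 baits at 10 ends. By the within-chromosome ratio it was above the mean of the others at 16 of 16 ends and the highest at 9. This ratio was above 1 at 14 of 16 ends for B118, and at 10, 9, 8, 9 and 10 ends for B7, B26, B44, B53 and B87. The 2 ends below 1 from B118 were those of chromosomes 2 and 18, at 0.923 and 0.942. These counts are over ends, which share the same 10 libraries, and carry no test.

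To test single ends, captured sites were counted in 10-Mb bins back from the last site on all 16 autosomes and compared between B118 and the other baits with edgeR, allowing for stage. Of 213 bins, 90 passed an adjusted p of 0.05, which is 42.3%, with 47 higher (22.1%) and 43 lower (20.2%) from B118. Of the 16 distal ends, 12 were higher, 0 were lower and all 16 had a positive log2 fold change, with a median of 0.30 against 0.00 over all bins. The bins at 10 to 20 Mb had 11 of 16 higher and 1 lower with a median of 0.19, and by 50 to 60 Mb there were 2 higher and 3 lower of 16. Higher capture from B118 thus ran on past the distal ends, with smaller values in each following bin up to 50 to 60 Mb.

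The end of chromosome 14 had the largest difference of any distal end, a log2 fold change of 0.59 ± 0.07 (SE; edgeR, adjusted p = 2.49e-11). Next came the ends of chromosome 2 at 0.40 ± 0.07, chromosome 3 at 0.40 ± 0.06, chromosome 1 at 0.37 ± 0.05, chromosome 4 at 0.37 ± 0.07, chromosome 9 at 0.36 ± 0.06, chromosome 5 at 0.35 ± 0.06 and chromosome 12 at 0.32 ± 0.07 (edgeR, adjusted p from 5.29e-10 to 7.20e-05). Smaller differences that passed were those of chromosome 6 at 0.27, chromosome 13 at 0.22, chromosome 10 at 0.17 and chromosome 7 at 0.15 (edgeR, adjusted p = 0.0317 for the last). At chromosome 1 the B118 libraries were at 1.76 and 1.27 (30 min), 1.63 and 1.59 (1 h), 1.64 (2 h), 1.52 (3 h), 1.79 (4 h), 1.71 (G2), and 1.55 and 1.50 (G0), where the means of the other baits were 1.10 to 1.34.

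The ends that did not pass were chromosome 18 at 0.14 ± 0.07 (edgeR, adjusted p = 0.0686), chromosome 11 at 0.03 ± 0.07, chromosome 15 at 0.02 ± 0.06 and chromosome 19 at 0.01 ± 0.05. B87 was the highest of the 6 baits at the ends of chromosomes 11 and 15, at 1.85 and 2.28, and also at those of chromosome 4 (1.03) and chromosome 10 (1.94). Without the libraries labelled 1 h replicate 2 and 2 h, 22 of 213 bins passed (15 higher, 7 lower) and 9 of the 16 ends were higher. On the 46 libraries 28 bins passed (16 higher, 12 lower), again with 9 ends higher. In both, the ends of chromosomes 7, 10 and 13 no longer passed (edgeR, adjusted p from 0.0616 to 0.267), and that of chromosome 14 was at 0.53 and 0.50. With reads per bin in place of captured sites, 9 of 215 bins passed, 4 of them higher, and these 4 were distal ends.

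**Figure D4:**
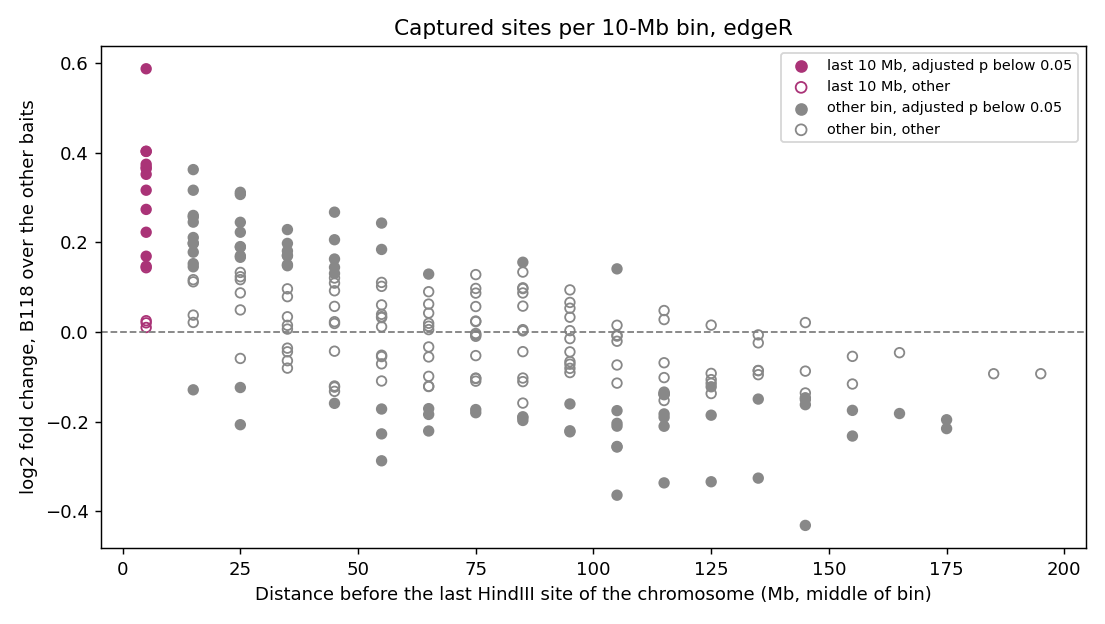
Log2 fold change of captured sites from B118 over the other baits (vertical axis, edgeR) in each of 213 bins of 10 Mb by distance before the last HindIII site (horizontal axis, Mb to the middle of the bin), with distal ends in purple and filled points where the adjusted p is below 0.05. All 16 distal ends lie above 0 and 12 are filled, and bins farther from the end lie lower, from a median of 0.30 to one of 0.02 at 50 to 60 Mb.

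Across stages the distal ratio moved less than between baits. Averaged over baits it was 1.03 in mitosis (4 baits), 1.14 and 1.05 in the 30 min replicates, and 1.13 and 1.11 in the 1 h replicates. It was 1.11 at 2 h, 1.19 at 3 h, 1.12 at 4 h, 1.12 in G2, and 1.02 and 1.11 in the G0 replicates. The mitosis mean lacks B87 and B118, the baits with the highest ratios, and is not comparable with the other means. Its libraries were at 0.955 (B7), 1.04 (B26), 1.07 (B44) and 1.08 (B53). The 3 h libraries were the only label with every bait above 1.1, from 1.14 at B44 to 1.30 at B87, but they captured only 3545 to 7438 sites. The 2 replicates of 30 min, and the 2 of G0, differed about as much as most labels did. The share of reads on chromosome 8 also differed, from 45.9% on average in 30 min replicate 2 to 89.0% in G0 replicate 2, and its part in these values was not tested.

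Between the first hour (30 min and 1 h) and 2 to 4 h the mean change over baits was 0.0334 ± 0.0560 (SD, n = 6), positive in 4 of 6 (exact sign-flip permutation test p = 0.219). By bait it was 0.113 at B7, 0.0609 at B26, 0.0509 at B44, 0.0292 at B53, -0.00482 at B87 and -0.0490 at B118. None passed by itself (exact permutation tests, adjusted p from 0.343 to 1.00), and whether the baits differ in it was not tested. In the bin test 0 of 213 bins passed (edgeR; 0%), 5 had an unadjusted p below 0.05, and none of those 5 was a distal end. DESeq2 also called 0, with 7 at an unadjusted p below 0.05. At every bait 1 h replicate 2, in the first hour, and technical replicate 1 of 2 h share most of their sites, so that many of the same sites stood on both sides of this comparison. Without these libraries the mean change was 0.0486 ± 0.0883, positive in 4 of 6 (exact permutation test p = 0.25), from -0.0822 at B118 to 0.175 at B7, with 2 libraries against 3 per bait. On the 46 libraries it was 0.0420 (exact permutation test p = 0.25). Both bin tests again called 0 of 213 (edgeR), with 10 and 11 bins at an unadjusted p below 0.05.

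G0 libraries had lower distal ratios than those of 2 to 4 h at all 6 baits, with differences of -0.117 at B7, -0.141 at B26, -0.0302 at B44, -0.00409 at B53, -0.136 at B87 and -0.0397 at B118. The mean difference was -0.0780 ± 0.0601 (SD, n = 6; exact sign-flip permutation test p = 0.03125, the smallest possible). This call rested on few libraries, and its units were the 6 baits, whose libraries may come from the same cultures. Without G0 replicate 1 the difference was -0.0350 (exact permutation test p = 0.25), without 3 h it was -0.0525 (exact permutation test p = 0.0938), and with the GC-matched expectation it was -0.0290 (exact permutation test p = 0.219). In the bin test 4 of 213 bins passed (edgeR; 1.88%), and 0 of the 16 distal ends did, with 2 at an unadjusted p below 0.05. Those were chromosome 15 at -0.23 ± 0.08 and chromosome 4 at -0.28 ± 0.10 on the log2 scale (edgeR, adjusted p = 0.118 for both). Without 1 h replicate 2 and 2 h the mean difference was -0.0927 and on the 46 libraries -0.0823, negative at all 6 baits in both (exact permutation test p = 0.03125). The bin test then called 3 and 2 bins, and on the 46 libraries 1 of them was the end of chromosome 15, at -0.40 ± 0.11 (edgeR, adjusted p = 0.0433).

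**Figure D5:**
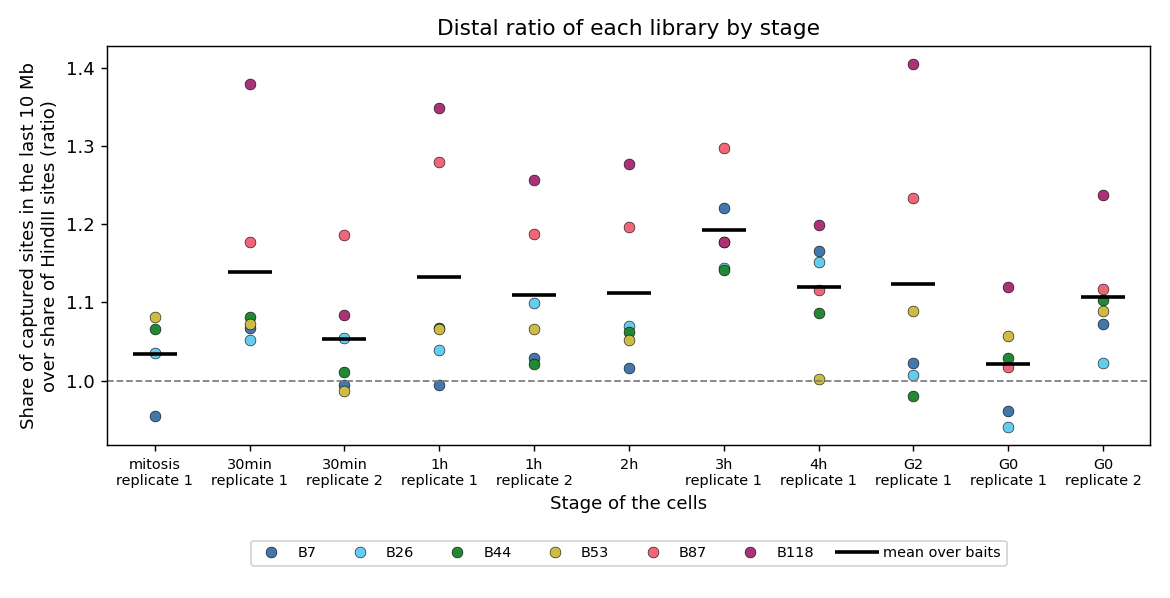
Distal ratio of each library (vertical axis, a ratio) by the label of the cells (horizontal axis), coloured by bait, with the mean over baits as a black bar. The means lie between 1.02 for G0 replicate 1 and 1.19 at 3 h, and that of mitosis is without B87 and B118. B118 is the highest bait in 8 of the 10 labels it has.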

How the data were processed

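Reads of 4C-seq libraries were deposited by the authors as raw read counts per HindIII site. Alignment used BWA 0.5.9 to mm9, per the submitters' processing notes, and how reads were filtered is not given in the sources used here. No scaling was applied to these counts. All positions of the table equalled HindIII sites of mm9. Gene names came from GENCODE for that build, protein-coding genes only where so stated, and coordinates are 1-based. The 39 columns of chromosome 16 and 17 baits and of 1.5 h were left out. In 35 of them the bait with the most reads within 100 kb was not the one that the label names.

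A site was captured with 1 read or more. Distal, neighbouring and proximal ratios were computed per library. Means were tested against 1 or 0 by flipping signs over baits, or over the libraries of a bait, with all flips counted (an exact two-sided permutation test). Pairs of baits were tested by exact permutation of libraries, and B118 against all others with 100000 resamples. Adjusted p-values are Benjamini-Hochberg. Captured sites per 10-Mb bin were tested with edgeR 4.0.16 (TMM, filterByExpr, robust quasi-likelihood fit with bait and stage as terms, R 4.3.3), in 1 fit of all 64 libraries, with DESeq2 1.42.0 as an alternative. GC classes were cut over the 1-Mb windows of the 16 autosomes. A site had a unique flank if it, joined to the 30 bases on at least 1 side, occurred once among the HindIII sites of mm9. Copies of the 30 bases away from a HindIII site were not searched for. Python 3.11.15, numpy 2.4.6, scipy 1.17.1 and pandas 2.3.3 were used, and the scripts were tested on simulated data.

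The members and lists were chosen with earlier results of these data known. Named were the 3 ends with the highest and the 3 with the lowest mean ratio, with the 1-Mb window of each with the highest summed ratio and up to 3 genes of longest overlap in it, every end passing a bin test, the protein-coding gene nearest each last site and the 5 sites captured by most libraries, with ties. One gene named by this rule is not reported here. Other genes and the Hoxc, keratin, imprinted and immunoglobulin clusters came from a fixed list, of which Igha was not matched. Libraries with the same label deviated together in part: deviations from the bait means correlated at a median of 0.0843 over 156 pairs with the same label and number, 77 of them above 0.1, and at -0.0148 over 1550 other pairs, 321 of them above 0.1. All 15 pairs at 2 h (median 0.428), all 6 in mitosis (0.240) and 10 of 15 at 4 h were above 0.1, and no other label had all its pairs above it, so that the numbers were not taken to pair libraries. Bait pairs were also tested with libraries of the same label matched. Alternatives were 2 reads or more, reads, other sizes of end and bin, sites with unique flanks, GC-matched expectation, a wider or narrower set of chromosomes or sites, each technical replicate of 2 h, no TMM, no filter, a replicate block, and each label, bait and, added after the data were seen, chromosome left out, and every library of the pairs sharing sites left out. Since PCR reads carried no molecular identifiers, intervals cover counting error only.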

Additional observations from a re-analysis of the deposited data

Results flagged for a closer look

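Over the 6 baits, the within-chromosome ratio of the chromosome 1 end was 1.55 from B118, far from the 5 others, which ran from 1.19 to 1.32. At the chromosome 14 end it was 1.13 from B118, far from the others at 0.767 to 0.855. These were the 2 cases found by Dixon's 95% limit among 34 groups of 4 to 10 values examined, and chance finds about 1 in 20.

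The 39 columns left out of all comparisons had a median distal ratio of 1.13, from 0.949 to 1.45, with 36 of 39 above 1. The bait from which these reads came is in doubt for most of them, so that no comparison with B118 was made.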

How the results depend on the processing

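The difference between B118 and the other baits kept its direction and stayed past the threshold under all 47 alternatives, from 0.131 to 0.207. Libraries with the same label deviated together at every pair of baits only at 2 h and in mitosis, and with a replicate block (B118 minus the other baits of the same label and number) the difference was 0.165, higher in 9 of 10 labels (exact sign-flip permutation test p = 0.00391). With libraries of the same label matched, the same 8 of 15 pairs of baits passed. The block gave 95 called bins and 12 called ends in the bin test. Leaving out each label or bait gave 0.150 to 0.191.

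With reads in place of captured sites the mean ratio over baits was 1.09 and B7 turned to 0.927. With the GC-matched expectation the mean was 1.01, B26 turned to 0.942, B44 to 0.992 and B87 to 0.974, and distal minus proximal turned to -0.00119. Leaving out each label or bait gave a mean ratio of 1.08 to 1.12, no longer past the threshold with 5 baits, where the smallest p is 0.0625. Distal minus neighbouring passed with ends of 20 Mb (0.0717), with unique flanks (0.0536) and without chromosome 2 (0.0611), 5 (0.0339), 7 (0.0316) or 18 (0.0419).

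G0 minus 2 to 4 h kept its sign but no longer passed with reads (-0.0831), ends of 5 Mb (-0.130), the GC-matched expectation (-0.0290), all chromosomes but 8 (-0.0777), sites of 1 bait only (-0.0536), technical replicate 2 of 2 h alone (-0.0815), and without chromosome 1 (-0.0823), 5 (-0.0702), 10 (-0.0758), 11 (-0.0736) or 12 (-0.0758). Leaving out each label or bait gave -0.121 to -0.0350.

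In the bin test of B118, called bins numbered 9 with reads, with 4 ends, and 22 without 1 h replicate 2 and 2 h, 28 on the 46 libraries that share few sites, and 58 to 97 when each label was left out, with 58 without 2 h. With 5-Mb bins 129 of 423 were called. The G0 test called 2 bins and 1 end on the 46 libraries, 2 of 423 bins of 5 Mb, 0 to 4 of the 10-Mb bins when each label was left out, and 1 end with reads. The cause was not tested. Few captured sites per end, 1 at the lowest, limit single ends in single libraries, and no chromosome was measured by a bait on another chromosome than 8.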
